A study of Arabidopsis thaliana with 8 samples.

Results

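The data describe 10 Arabidopsis thaliana genes for the synthesis and turnover of salicylic acid and pipecolic acid, measured in leaf RNA of 8 strains. They were taken by locus name from 25665 loci on the array, and all 10 were among the 22381 genes tested, that is, well above background on at least 1 array. They are ICS1 (AT1G74710), EDS5 (AT4G39030), CBP60g (AT5G26920), SARD1 (AT1G73805), DMR6 (AT5G24530), DLO1 (AT4G10500), ALD1 (AT2G13810), FMO1 (AT1G19250), EDS1 (AT3G48090) and PAD4 (AT3G52430). The list was selected on measured levels in these strains as well as on known roles, with the measure and threshold not given in the sources at hand, so the levels are a description, with no test. Per the labels, each strain is a diploid descendant of a plant that carried the gene for the restriction enzyme MseI and had been held for 3 h at 33 °C to switch the enzyme on, a treatment called Ex-TAQing that cuts and rejoins chromosomes. Plants stood for 4 weeks on agar medium with sucrose in days of 16 h light and 8 h dark. The strains, ExTQ019, ExTQ002, ExTQ013, ExTQ015, ExTQ003, ExTQ005, ExTQ016 and ExTQ018, share this ancestry and treatment. Each had 1 array, and no untreated strain was used here. The spread between plants of a strain was therefore not measured, and precision is limited by the small number of arrays. The promoter that drives the enzyme and the number of plants in a sample are not given in the sources used here.

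Salicylic acid is the hormone by which a plant defends living leaf cells against biotrophic pathogens. In Arabidopsis most of it is made from chorismate by ICS1 in the plastid, exported by EDS5 and completed in the cytosol, while the hydroxylases DMR6 and DLO1 remove it. A parallel path, from ALD1 to FMO1, makes pipecolic acid from lysine and N-hydroxylates it into the mobile signal of systemic acquired resistance. The transcription factors CBP60g and SARD1 switch on genes of both paths, and the lipase-like proteins EDS1 and PAD4 act upstream of both after receptors have sensed a pathogen.

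A level below is the log2 intensity of a probe relative to the 75th percentile of its array, so levels of the same gene can be compared between strains but levels of different genes cannot. The arrays sat on 2 slides of 4, with ExTQ002, ExTQ013, ExTQ015 and ExTQ003 on the first. Between 61.3% and 67.7% of probes were well above background on an array. Probes printed many times varied between spots by an SD of 0.054 to 0.082 on the log2 scale, so neighbouring strains in an order are called alike here when they lie less than 0.23 apart. This limit comes from spots within an array, of probes well above background. It leaves out differences between arrays and between samples, so a wider step does not show that 2 strains differ. All 5 leaf markers were well above background in every strain, with a summed intensity of 312 to 480 times the 75th percentile. All 5 flower markers were above background in each strain but ExTQ002, where 3 were, and their sum ran from 0.643 in ExTQ002 to 15.5 in ExTQ018. Seed markers were above background in ExTQ016, with 5 of 5 and a sum of 85.2, and in ExTQ018, with 3 of 5 and a sum of 0.356, and in no other strain. Of 5 root markers 2 or 3 were above background in each strain, with sums from 0.0288 in ExTQ019 to 1.197 in ExTQ013. The top of this range was almost all PHT1;1, at 0.23 in ExTQ013 and −7.78 in ExTQ019. No other root marker exceeded −5.08 in any strain, the level of COBL9 in ExTQ018, so the sums do not measure root content. Markers of other organs were thus above background in every strain, and their part in the levels below was not tested. In bulk RNA, more cells that express a gene and more RNA per cell cannot be told apart.

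All 10 genes were highest in ExTQ019, with ExTQ002 and then ExTQ013 next in value, although these 2 strains were alike within the spot error for EDS1 and SARD1. Their levels in ExTQ019 were above the mean of the 7 others by 2.55 (EDS1) to 7.52 (DLO1) on the log2 scale, with a median of 4.03, against a median of −0.049 over all tested genes. ExTQ002 lay above the mean of its 7 others by a median of 1.47 and ExTQ013 by 0.98, while the median was −0.64 in ExTQ015, −1.04 in ExTQ005, −1.10 in ExTQ018, −1.92 in ExTQ016 and −2.14 in ExTQ003, with levels not well above background included for ALD1 and FMO1. The order ExTQ019, ExTQ002, ExTQ013 at the top was also found in 1441 of the tested genes, or 6.44%. ExTQ019 was the highest strain for 6174 of the tested genes, or 27.6%. Below these strains the genes ran in different orders. Of the 8 members well above background on all arrays, ICS1, EDS5 and SARD1 were lowest in ExTQ003, and CBP60g, DLO1 and PAD4 were lowest in ExTQ016. DMR6 was alike in ExTQ003 and ExTQ016, and EDS1 in ExTQ016 and ExTQ005. This lower end depends on the background correction. With normexp, under which the median difference of all genes in ExTQ003 was 0.28, against 0.041 in the main setting, none of these 8 was lowest in ExTQ003 and 7 were lowest in ExTQ016. The order at the top then held for 9 of the 10 members, with ALD1 the exception.

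**Figure D1:**
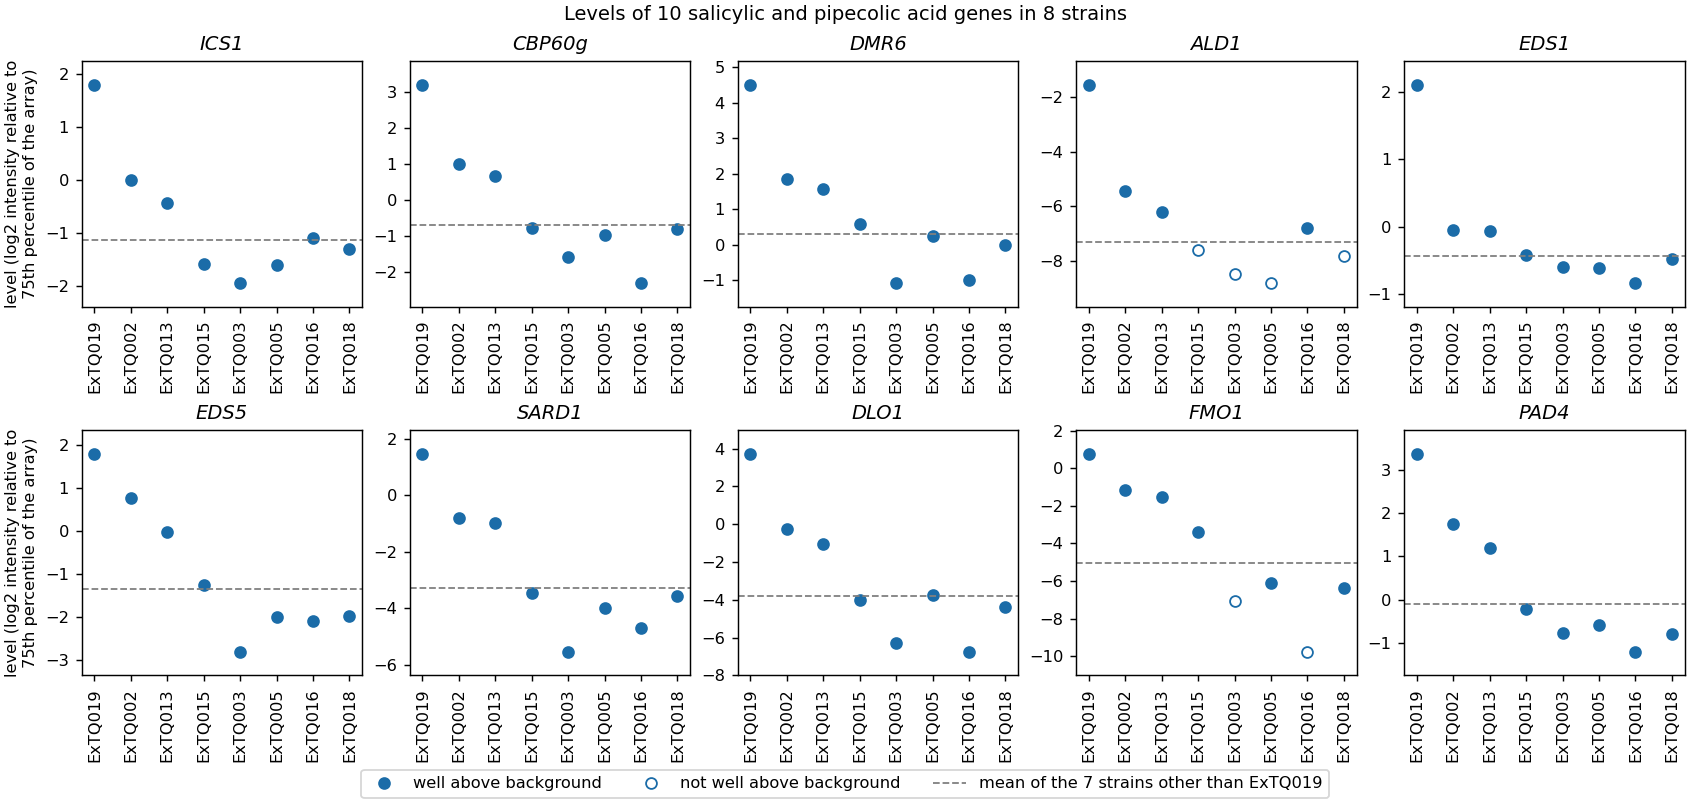
Level of each of the 10 genes (y axis, log2 intensity relative to the 75th percentile of the array) in the 8 strains (x axis), 1 array a strain, with open points where the probe was not well above background and a dashed line at the mean of the 7 strains other than ExTQ019. In every panel ExTQ019 is highest, and ExTQ002 and ExTQ013 come next, nearly level for EDS1 and SARD1.

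The genes that make salicylic acid come first. ICS1, isochorismate synthase and the entry enzyme of the plastid route, stood at 1.79 in ExTQ019, against −0.012 in ExTQ002, −0.44 in ExTQ013, −1.09 in ExTQ016, −1.30 in ExTQ018, −1.59 in ExTQ015, −1.61 in ExTQ005 and −1.95 in ExTQ003. That is 3.48-fold above ExTQ002 and 7.61-fold above the geometric mean of the 7 others, whose level was −1.14 ± 0.69 (SD, n = 7). ExTQ016 and ExTQ018 were alike within the spot error, as were ExTQ015 and ExTQ005. The array holds 2 probes for ICS1, and their levels followed each other over the 8 strains with a Pearson r of 0.999. EDS5, the transporter that exports the product of ICS1 from the plastid, stood at 1.80 in ExTQ019, against 0.77 in ExTQ002, −0.016 in ExTQ013, −1.25 in ExTQ015, −1.98 in ExTQ018, −1.99 in ExTQ005, −2.08 in ExTQ016 and −2.80 in ExTQ003. The 7 others averaged −1.33 ± 1.27 (SD, n = 7), and ExTQ019 was 8.77-fold above them. EDS5 had the smallest step of all members between ExTQ019 and ExTQ002, at 1.03 or 2.04-fold. Over the 7 strains other than ExTQ019, EDS5 spanned 11.8-fold and ICS1 3.82-fold.

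The transcription factor genes spanned wider ranges than ICS1. CBP60g, which encodes a calmodulin-binding activator of ICS1, stood at 3.20 in ExTQ019, against 0.99 in ExTQ002, 0.68 in ExTQ013, −0.76 in ExTQ015, −0.80 in ExTQ018, −0.96 in ExTQ005, −1.57 in ExTQ003 and −2.29 in ExTQ016. ExTQ019 was 14.6-fold above the 7 others, which averaged −0.67 ± 1.16 (SD, n = 7). SARD1, its close relative that does not bind calmodulin, stood at 1.47 in ExTQ019, against −0.79 in ExTQ002, −0.99 in ExTQ013, −3.45 in ExTQ015, −3.58 in ExTQ018, −4.00 in ExTQ005, −4.71 in ExTQ016 and −5.53 in ExTQ003. ExTQ019 was 27.2-fold above the 7 others, which averaged −3.29 ± 1.79 (SD, n = 7). For SARD1 the strains ExTQ002 and ExTQ013 were alike within the spot error, and ExTQ013 lay 5.50-fold above the next strain, ExTQ015. The whole range over 8 strains was 129-fold for SARD1 and 44.8-fold for CBP60g. The low end of SARD1 was dim, at a processed intensity of 39.6 in ExTQ003. Its range therefore rests partly on the background subtraction.

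EDS1 and PAD4 encode partner proteins that form a complex, and their levels were spread differently over the strains. EDS1 stood at 2.11 in ExTQ019, against −0.045 in ExTQ002, −0.072 in ExTQ013, −0.42 in ExTQ015, −0.49 in ExTQ018, −0.60 in ExTQ003, −0.62 in ExTQ005 and −0.84 in ExTQ016. Without ExTQ019 its range was 1.73-fold, the narrowest of the members, and 5 of the 7 steps between neighbouring strains were within the spot error. ExTQ019 was 5.85-fold above the 7 others, which averaged −0.44 ± 0.29 (SD, n = 7). PAD4 stood at 3.37 in ExTQ019, against 1.74 in ExTQ002, 1.199 in ExTQ013, −0.20 in ExTQ015, −0.59 in ExTQ005, −0.77 in ExTQ003, −0.79 in ExTQ018 and −1.19 in ExTQ016. Its range without ExTQ019 was 7.63-fold. ExTQ019 was 10.97-fold above the 7 others, which averaged −0.086 ± 1.11 (SD, n = 7). A close copy, EDS1B (AT3G48080), has a nearby locus and its own probe, so signal shared between the EDS1 and EDS1B probes is uncertain. EDS1B stood at 1.27 in ExTQ019, against −1.18 in ExTQ002 and −5.17 in ExTQ003, its lowest strain.

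The pipecolic acid genes were at or near background in several strains. ALD1, the aminotransferase that starts the path from lysine, was well above background in 4 strains, at −1.54 in ExTQ019, −5.45 in ExTQ002, −6.19 in ExTQ013 and −6.80 in ExTQ016. ExTQ019 was 15.1-fold above ExTQ002, 25.1-fold above ExTQ013 and 38.3-fold above ExTQ016. The probe was dim there, at processed intensities of 51.6 in ExTQ002, 34.4 in ExTQ013 and 19.2 in ExTQ016. These fold values therefore rest partly on the background subtraction. In ExTQ015, ExTQ003, ExTQ005 and ExTQ018 the probe was not well above background. There ExTQ019 was at least 51.2-fold, 57.0-fold, 72.5-fold and 67.7-fold higher in the main setting. On each array the comparison was with the lowest level of any probe well above background or the gene's own level, whichever is higher. FMO1, the monooxygenase that N-hydroxylates pipecolic acid, stood at 0.78 in ExTQ019, against −1.17 in ExTQ002, −1.55 in ExTQ013, −3.42 in ExTQ015, −6.13 in ExTQ005 and −6.40 in ExTQ018. It was not well above background in ExTQ003 and ExTQ016, where ExTQ019 was at least 225-fold and at least 390-fold higher by the same rule. ExTQ016 thus had ALD1 above background and FMO1 not, while ExTQ015, ExTQ005 and ExTQ018 had FMO1 above background and ALD1 not. By this rule ALD1 in ExTQ019 was at least 5.37 above the mean of the 7 others on the log2 scale. The difference fitted with normexp was 2.86, so the bounds on ALD1 hold for the main setting and depend on the processing. The bounds on FMO1 were also set in the main setting.

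The salicylic acid hydroxylases covered a wide range. DMR6, a 5-hydroxylase whose loss makes plants resistant to downy mildew, stood at 4.50 in ExTQ019, against 1.86 in ExTQ002, 1.58 in ExTQ013, 0.58 in ExTQ015, 0.24 in ExTQ005, −0.013 in ExTQ018, −0.99 in ExTQ016 and −1.07 in ExTQ003. ExTQ019 was 18.2-fold above the 7 others, which averaged 0.31 ± 1.14 (SD, n = 7). DLO1, a 3-hydroxylase known from ageing leaves, stood at 3.74 in ExTQ019, against −0.28 in ExTQ002, −1.02 in ExTQ013, −3.73 in ExTQ005, −4.00 in ExTQ015, −4.37 in ExTQ018, −6.30 in ExTQ003 and −6.75 in ExTQ016. It was 16.2-fold above ExTQ002 and 184-fold above the 7 others, which averaged −3.78 ± 2.43 (SD, n = 7). No step between neighbouring strains was within the spot error for DLO1. The range of DLO1 over 8 strains was 10.49 on the log2 scale, larger than that of 99.8% of the tested genes, and that of EDS1, the narrowest member, was 2.95, larger than that of 82.6%. The low end of DLO1 was dim, at a processed intensity of 19.9 in ExTQ016 and 23.3 in ExTQ003, against 33911 in ExTQ019. Its range and fold values therefore rest partly on the background subtraction. Since the members were selected on their levels, these shares are a description.

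How the members vary together was described with correlations over strains, which share arrays and scaling and rest on 8 points. Among the 8 members well above background on all arrays, the Pearson r of a pair had a median of 0.95 over 28 pairs, from 0.84 to 0.99. Without ExTQ019 the median was 0.94, from 0.74 to 0.99. DLO1 and DMR6 had an r of 0.99 over 8 strains and 0.99 without ExTQ019, although ExTQ019 differed from ExTQ003 by 10.04 in DLO1 and by 5.57 in DMR6. SARD1 and CBP60g had 0.97 and 0.95, EDS5 and ICS1 0.93 and 0.91, and PAD4 and EDS1 0.91 and 0.96. FMO1 and ALD1 had 0.73 and 0.56, with levels near background in 5 strains for at least 1 of them. In the main setting the difference of ExTQ016 from ExTQ003 changed sign from gene to gene. Of the 8 members, ICS1 (0.85), SARD1 and EDS5 were higher in ExTQ016, DMR6 was alike within the spot error, and 4 were lower, led by CBP60g at −0.72. With normexp SARD1, EDS5 and DMR6 were lowest in ExTQ016 too, so these signs depend on the background correction.

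**Figure D2:**
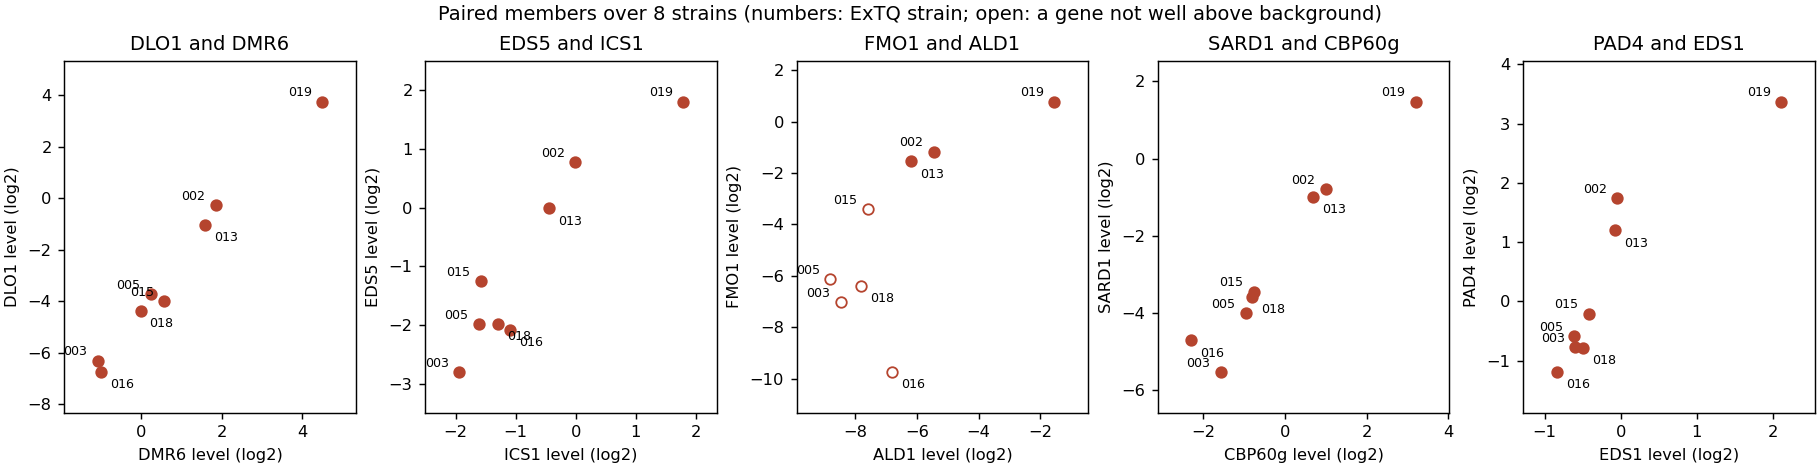
Levels (log2 intensity relative to the 75th percentile of the array) of 5 pairs of functionally related members, with a point for each of the 8 strains labelled by the number in its name and open points where either gene was not well above background. DLO1 and DMR6 lie close to a line. In the panel of FMO1 and ALD1 the FMO1 level of ExTQ016 was not well above background, so the position of that point is not fully measured.

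Another 64 genes of these paths, listed by their known roles but with earlier results of these data in view, were tested with limma in each strain against the 7 others. A gene was called at a Benjamini-Hochberg adjusted p under 0.05 over all tested genes and a difference of at least 1 on the log2 scale. In ExTQ019 11 of the 64 were called higher, where 4.4% of all tested genes were, and 3 were called lower, where 6.3% were, so 21.9% were called in either direction, where 10.7% of all tested genes were. Calls in the lists below are to be read against these shares of all tested genes. The median difference of the 64 was 0.39, against −0.049 over all tested genes. The test takes the spread from the 7 others and assumes that the lone strain varies as they do. The 14 calls fell to 7 without ExTQ015, 8 without ExTQ003, 6 without ExTQ005, 9 without ExTQ016 and 8 without ExTQ018, and to 7 with normexp. In each of the other strains 0 of the 64 were called by limma, with 2 at an unadjusted p under 0.05 in ExTQ002, 2 in ExTQ016 and 0 in the other 5. Over all 22381 tested genes, 2142 were under this limit in ExTQ002, 1068 in ExTQ016 and 7205 in ExTQ019, where 32 of the 64 were. The counts at this limit in the lists below are to be read against 7205 of 22381. The share of all tested genes called was 0.0849% in ExTQ002, 0.0536% in ExTQ015, 0.00447% in ExTQ005, 1.39% in ExTQ016 and 0% in ExTQ013, ExTQ003 and ExTQ018. With normexp 6 of the 64 were called higher in ExTQ003, among 5391 of all genes, and without ExTQ002 1 was called in ExTQ016.

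Of 8 other salicylic acid synthesis genes, 0 were called in ExTQ019 by limma, with 3 at an unadjusted p under 0.05 and a median difference of 0.23. PBS3, which joins glutamate to isochorismate in the cytosol, stood at 2.43 in ExTQ019, against 0.49 in ExTQ002, 0.33 in ExTQ013 and −2.13 in ExTQ003, its lowest strain. Its difference of 3.45 did not pass the test (limma adjusted p = 0.0543). ICS2, the second isochorismate synthase gene, was lowest in ExTQ019 at −4.32, with a difference of −1.68 that did not pass either (limma adjusted p = 0.0526). The phenylalanine ammonia-lyase genes PAL1 to PAL4 open the other route to salicylic acid, and their differences lay between −0.81 (PAL3) and 0.68 (PAL2), none of them called in ExTQ019. PBS3, ICS2 and the PAL genes lay outside the rule for naming genes and were chosen after their values were seen, as were EDS1B, UGT76B1, SARD4, EPS1 and CBP60d.

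Of 12 genes for conjugation and methylation of salicylic acid, 3 were called higher and 1 lower in ExTQ019, with a median of 0.45. MES9 and MES1, esterases that free salicylic acid from its methyl ester, were higher by 2.73 ± 0.70 (standard error from 1 and 7 arrays; limma adjusted p = 0.0367, 0.0261 to 0.0648 over 16 alternatives) and by 2.59 ± 0.59 (limma adjusted p = 0.0249, 0.0123 to 0.0504). SOT12, a sulfotransferase, was higher by 1.65 ± 0.40 (limma adjusted p = 0.0310, 0.0196 to 0.0848). MES7, a further esterase, did not reach well above background in ExTQ019, so that the 7 others exceeded it and ExTQ019 lay at least 5.99-fold lower in the main setting (limma adjusted p = 0.0181, 0.0129 to 0.594 over 15 alternatives). The fitted difference of MES7 ran from −2.78 to −0.43 over these alternatives, so this bound depends on the processing. UGT76B1, which glucosylates both salicylic acid and N-hydroxypipecolic acid, had a difference of 3.49 that did not pass the test (limma adjusted p = 0.0680). The call of MES9 was lost without ExTQ003, ExTQ005 or ExTQ016 and with slide as a block, that of SOT12 without ExTQ015 or ExTQ005 and within the slide, that of MES7 in the deposited series values, and all 4 with normexp.

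Among 9 genes of the pipecolic acid reductase and the EDS1 node, 2 were called higher in ExTQ019 and 0 lower, with a median of 1.36 and 5 genes at an unadjusted p under 0.05. ADR1, a helper immune receptor that acts with EDS1 and PAD4, was higher by 2.39 ± 0.58 (limma adjusted p = 0.0305, 0.0134 to 0.0582 over 16 alternatives). ADR1-L1, of the same family, was higher by 1.44 ± 0.36 (limma adjusted p = 0.0357, 0.0112 to 0.0806). SARD4, the reductase between ALD1 and FMO1, stood at 1.54 in ExTQ019 and 0.79 in ExTQ002, and its difference of 1.47 in ExTQ019 did not pass (limma adjusted p = 0.102). The calls of ADR1 and ADR1-L1 were both lost without ExTQ015, ExTQ005 or ExTQ018, and that of ADR1-L1 also without ExTQ003 or ExTQ016 and with normexp.

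The 20 genes of the CBP60 family and of ICS1 regulators gave 2 calls higher and 2 lower in ExTQ019, with a median of −0.23. WRKY46, a defence transcription factor, was higher by 3.99 ± 1.05 (limma adjusted p = 0.0409, 0.0106 to 0.0739 over 16 alternatives). TCP9, which binds the ICS1 promoter, was higher by 1.197 ± 0.33 (limma adjusted p = 0.0482, 0.00744 to 0.286). ANAC055, a repressor of ICS1, fell by 1.76 ± 0.42 (limma adjusted p = 0.0295, 0.0162 to 0.102), and CAMTA2, of a family that holds back salicylic acid synthesis, fell by 1.02 ± 0.22 (limma adjusted p = 0.0207, 0.0143 to 0.0955). CBP60d differed by 0.97, under the size of 1 required (limma adjusted p = 0.00313), and none of CBP60a to CBP60f was called. The call of WRKY46 was lost with normexp and without ExTQ015, ExTQ003, ExTQ005, ExTQ016 or ExTQ018. That of TCP9 was lost in the same cases, without ExTQ013, with quantile normalization, in the deposited series values and without a filter. ANAC055 was lost with normexp, without ExTQ003 and both with slide as a block and within the slide. CAMTA2 was lost without ExTQ015 or ExTQ003, with normexp or quantile normalization, in the deposited series values and in both slide settings.

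Of 15 receptor, co-factor and output genes, 4 were called higher in ExTQ019 and 0 lower, with a median of 0.76 and 9 at an unadjusted p under 0.05. NPR4, a salicylic acid receptor, was higher by 1.43 ± 0.20 (limma adjusted p = 0.00506, 0.00266 to 0.0208 over 16 alternatives), and NPR1, the receptor that activates defence genes, by 1.19 ± 0.29 (limma adjusted p = 0.0318, 0.0142 to 0.0598). NIMIN1, which binds NPR1, was higher by 4.39 ± 0.80 (limma adjusted p = 0.0115, 0.00567 to 0.0496). PR5, a thaumatin-like output gene, was higher by 6.23 ± 1.71 (limma adjusted p = 0.0471, 0.0165 to 0.0826). PR1 stood at 3.29 in ExTQ019, against −6.88 to −1.002 in 6 others, and was not well above background in ExTQ003, so its fitted difference of 7.72 includes a level with only a bound. BGL2 had a difference of 5.96, and neither gene passed the test (limma adjusted p = 0.107 and 0.181). PR1 passed with normexp and in the deposited series values, and BGL2 within the slide, over ranges of 0.0214 to 0.162 and 0.0408 to 0.251. The calls of NPR4 and NIMIN1 held in all 16 alternatives, and the other 12 of the 14 were each lost in at least 1. NPR1 lost its call without ExTQ015, ExTQ005 or ExTQ018, and PR5 without any of ExTQ013, ExTQ015, ExTQ003, ExTQ005, ExTQ016 or ExTQ018, without a filter and with slide as a block.

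**Figure D3:**
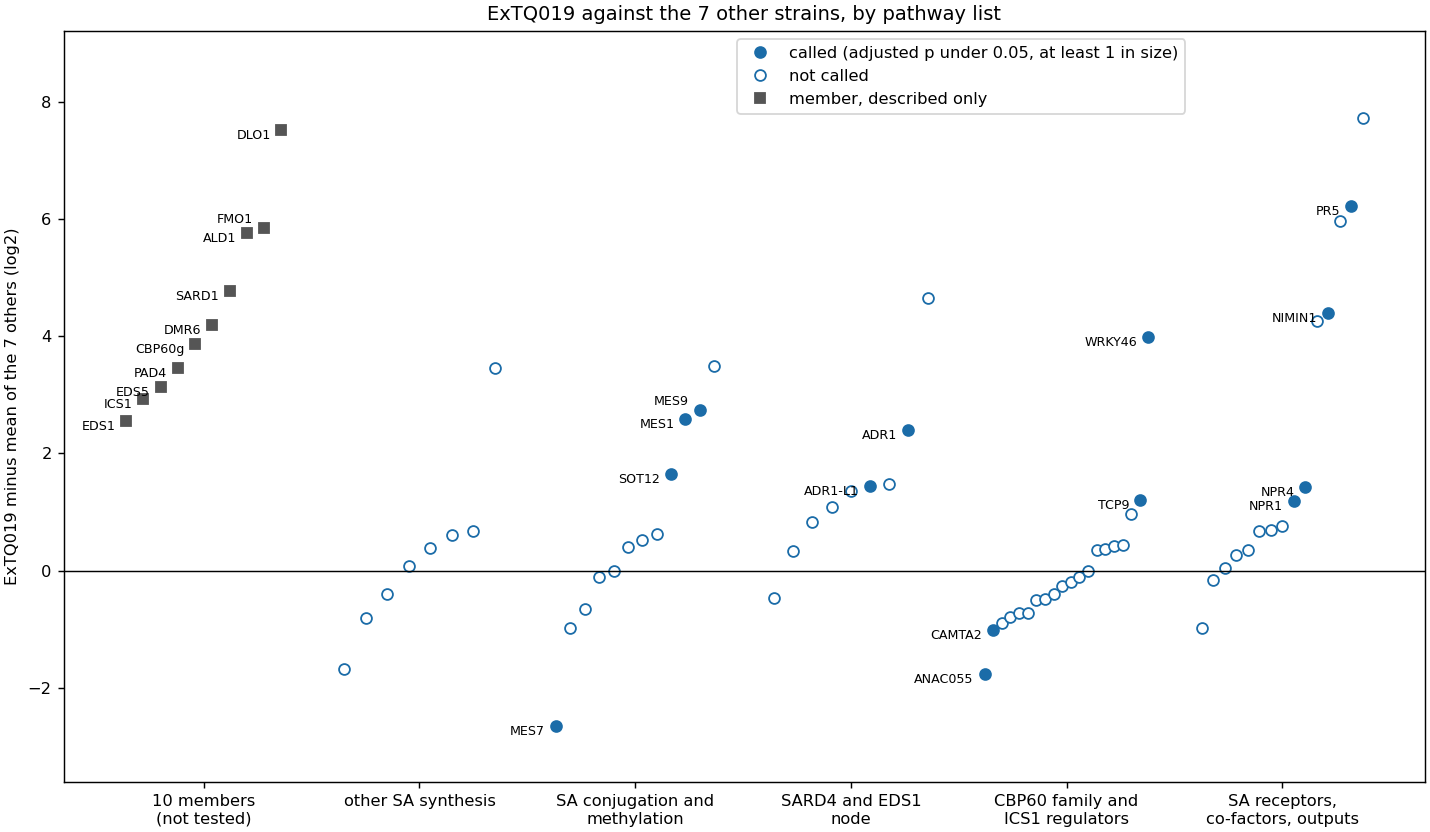
Difference between ExTQ019 and the mean of the 7 other strains (y axis, log2) for the 10 members, shown as squares, and for 64 other genes in 5 lists, shown as circles that are filled where limma called the gene. The members lie between 2.55 and 7.52, with strains not well above background among the others for ALD1 and FMO1, and the called genes of the lists between −2.65 and 6.23.

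Because the treatment cuts and rejoins chromosomes, each gene was set beside its neighbours. For every member the 20 nearest genes in locus order that were well above background on all arrays, 10 on each side, gave a median difference of ExTQ019 from the 7 others. These medians lay between −0.20 (around DMR6) and 0.30 (around EDS1), while the members themselves lay between 2.55 and 7.52. In the other 7 strains the medians around the members ran from −0.37 in ExTQ002 to 0.19 in ExTQ016. Of the 64 other pathway genes, 13 had neighbours with a median under −0.5 in ExTQ019 and 1 had neighbours above 0.5, PAL2, at 0.74 beside its own difference of 0.68. The share of all genes with such neighbours is not given here, so these counts do not set the 64 apart from other genes. In the other strains 1 gene had neighbours beyond 0.5 in either direction, PBS3 in ExTQ003, at −0.54 beside its own −1.75. ANAC055 (−1.76) had neighbours at −1.23 and CAMTA2 (−1.02) had neighbours at −0.84. Whether the lower levels of ANAC055 and CAMTA2 are particular to these genes or shared with their stretch was not tested. WRKY46 was higher by 3.99 with neighbours at −0.64, and SARD4 stood 1.47 above the mean of the others with neighbours at −0.63. EPS1, which breaks down the product of PBS3 to salicylic acid, had a difference of −0.40 with neighbours at −1.35.

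**Figure D4:**
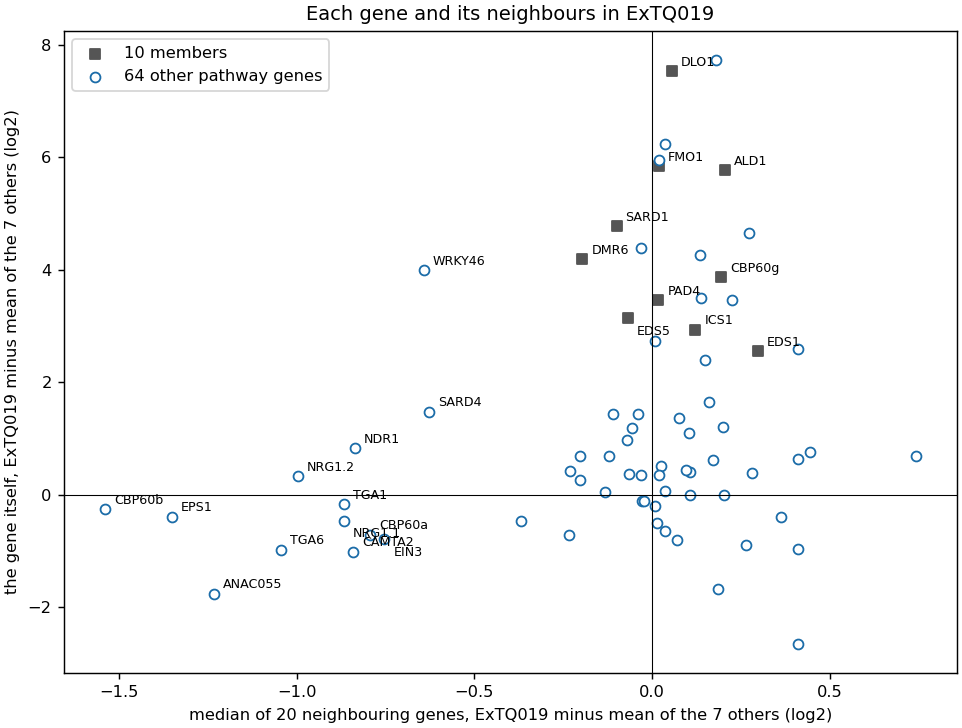
Difference between ExTQ019 and the mean of the 7 others for each gene (y axis, log2) against the median difference of its 20 neighbours in locus order (x axis, log2), with squares for the 10 members and circles for 64 other pathway genes. The neighbours of the members lie between −0.20 and 0.30, and 13 circles have neighbours under −0.5.

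Markers of senescing leaves were set beside these genes, because salicylic acid also rises as leaves age. All 5 were above background in every strain, and their summed intensity was 22.4 times the 75th percentile in ExTQ019, 24.6 in ExTQ002 and 25.2 in ExTQ013, against 10.2 (ExTQ016) to 16.3 (ExTQ015) in the other 5. The markers did not move as a group. SAG13 stood at 3.90 in ExTQ019, 2.34 in ExTQ002 and 2.08 in ExTQ013, and at most at 0.22 in the others. SAG12, a protease gene used as a marker of late senescence, stood at −1.19 in ExTQ019, against 0.95 in ExTQ002 and −6.14 in ExTQ015. The senescence regulators NAP and ORE1 were lowest in ExTQ019, at 1.65 and 1.11, against 3.03 and 2.82 in ExTQ002 and 3.30 and 2.96 in ExTQ013. SGR1 stood at 0.73 in ExTQ019, 1.29 in ExTQ002 and 1.51 in ExTQ013, and at most at 0.41 in the others. The similar sums of ExTQ019, ExTQ002 and ExTQ013 thus came from different markers. The part of leaf age in the members' levels was not tested.

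**Figure D5:**
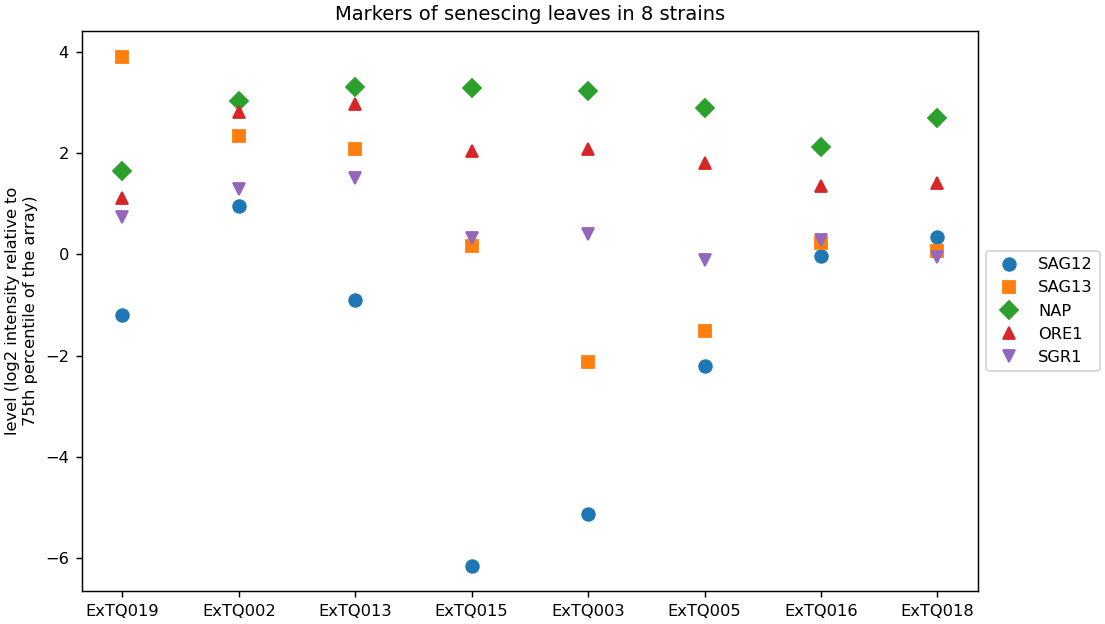
Level (y axis, log2 intensity relative to the 75th percentile of the array) of 5 marker genes of senescing leaves in the 8 strains (x axis), 1 array a strain. SAG13 is highest in ExTQ019 at 3.90, where NAP and ORE1 are at their lowest, 1.65 and 1.11.

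The genes most like the members were sought among 1555 others that were above background on all arrays with an SD over strains of at least 1. The measure was the lower of the Pearson correlations with the mean standardised level of the members over 8 strains and over the 7 without ExTQ019. It was above 0.9 for 293 genes. The 5 highest were AT3G60420 and the transcription factor gene WRKY50, both at 0.996, the chitinase gene CHI (AT2G43570), at 0.994, the receptor-like protein gene RLP35, at 0.994, and AT1G73800, at 0.993. WRKY50 stood at 0.28 in ExTQ019, −1.91 in ExTQ002 and −2.10 in ExTQ013, and at −4.74 in ExTQ016, its lowest strain. CHI stood at 5.67 in ExTQ019, 2.45 in ExTQ002 and 1.89 in ExTQ013, and at −2.05 in ExTQ003, its lowest strain. AT1G73800 stood at 2.18 in ExTQ019 and −4.13 in ExTQ003. Its locus name directly precedes that of SARD1, and whether the probes of both read the same transcript was not tested.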

How the data were processed

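Leaf total RNA, 200 ng a sample, was labelled with Cy3 per the labels' protocols, although the molecule field names genomic DNA. Strain names follow the titles, and the descriptions give other numbers. Per the file headers, the authors made the intensity values with Agilent Feature Extraction 11.0.1.1, subtracting the background and detrending within an array but not scaling arrays to each other. The deposited series table holds log2 values whose quantiles nearly match between columns. The submitters' processing notes name limma, with no account of the step.

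Processed intensities were put on the log2 scale, spots with an outlier mark left out, spots of a probe averaged, and each array scaled to its 75th percentile. Of 37478 probes 34 were left out. Each locus was represented by its brightest probe on average. Symbols came from the reference gene table for 25449 of 25665 loci, and DLO1 is a synonym there, as ICS1 is of EDS16. Tests used limma 3.58.1 in R 4.3.3, checked on simulated data. The spread comes from the 7 other strains. Normexp (offset 50) used the median spot and background intensities, since the files hold no mean signal. Other alternatives were quantile normalization, the deposited values, other filters, the mean of all probes, trend and robust variance, the slide as a block, the same slide only, and each strain left out.

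The members and lists were chosen with earlier results of these data known. The naming rule took all members, up to 4 called genes in each list, PR1, BGL2 and PR5, and the 5 genes most alike. Figures used matplotlib 3.10.9. No genome build is named for the array design, so coordinates are left out and neighbours follow locus names.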

Additional observations from a re-analysis of the deposited data

Results flagged for a closer look

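In 6 of 31 genes looked at, the gap between the most extreme strain and its nearest neighbour exceeded 0.526 of the range over the 8 strains, Dixon's limit, which about 1 in 20 groups pass by chance. That rate does not apply here, because most of these genes were named for their level in ExTQ019, so the values are a description with no test, and that ExTQ019 is the extreme strain follows from the choice. The gap was 0.731 of the range for EDS1, 0.695 for NPR4 and 0.590 for NIMIN1, all highest in ExTQ019, and 0.625 for CAMTA2, lowest in ExTQ019. The values of 0.538 for ALD1, highest in ExTQ019, and 0.534 for MES7, lowest there, rest on levels not well above background, so that their ranges are not fully measured.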

How the results depend on the processing

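No paired analysis was possible because the 8 strains form 1 group with 1 array each. The median difference of the members in ExTQ019, 4.03, lay between 3.51 and 4.65 under the 15 alternatives run. Leaving out 1 strain moved the count of the 64 pathway genes called in ExTQ019, 14, to between 6 and 18, and the count in ExTQ016, 0, to between 0 and 1. With normexp the counts were 7 in ExTQ019 and 6 in ExTQ003, against 14 and 0, and the cause was not tested. The counts in the other strains, and the direction of each member's difference in ExTQ019, did not change under any alternative run. The fitted difference of ALD1, whose levels in 4 strains are not well above background, was 2.86 with normexp and 3.03 in the deposited series values. With 1 array a strain, differences between strains cannot be separated from differences between samples of a strain, and an exact permutation test of 1 strain against 7 cannot go below p = 0.125. Levels of probes that are not well above background have no order among strains.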
